A study of Mus musculus with 12 samples.

Results

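The 10 circadian clock and output genes Per1, Per2, Per3, Cry1, Cry2, Nr1d1, Nr1d2, Dbp, Bhlhe40 and Bhlhe41 were taken by name from the 24062 gene symbols of an RNA-Seq count table. All 10 were among the 12154 genes that passed the filter on low counts. RNA came from mouse embryonic fibroblasts (MEFs) that expressed an shRNA against Renilla luciferase (shRenilla, the control) or one that targets Birc6, which encodes BRUCE (shBruce). Each line was kept in full medium (FM) or placed for 2 h in medium that lacked both serum and amino acids (Starv), which gave 4 conditions with 3 replicate libraries each. There was 1 line per shRNA, so the knockdown and any other difference between the lines cannot be told apart. Cells were sampled once per condition, and the time of day of the harvest is not given in the sources used here. Nothing in the labels says that replicates were separate cultures, so the p-values measure only the spread between these libraries, which may be technical.

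In the mammalian clock, CLOCK and BMAL1 (the product of Arntl) bind E-boxes and activate the PERIOD and cryptochrome genes, whose proteins then repress CLOCK and BMAL1. In a connected loop, the REV-ERB receptors encoded by Nr1d1 and Nr1d2 repress Arntl at elements that they share with the activating ROR receptors, while DBP activates genes through D-boxes and the DEC proteins encoded by Bhlhe40 and Bhlhe41 repress through E-boxes. Cultured fibroblasts carry this oscillator, and their clocks can be reset by serum and by glucocorticoids.

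All 10 are protein-coding genes in GENCODE M21 (GRCm38). The PERIOD genes are Per1 at chr11:69095217-69109960 (plus strand), Per2 at chr1:91415982-91459324 (minus strand) and Per3 at chr4:151003652-151044665 (minus strand), and the cryptochromes Cry1 at chr10:85131700-85185064 (minus strand) and Cry2 at chr2:92403646-92434043 (minus strand). Nr1d1 lies at chr11:98767932-98775333 (minus strand), Nr1d2 at chr14:18204054-18239127 (minus strand) and Dbp at chr7:45705088-45710203 (plus strand). The DEC genes are both on chromosome 6, Bhlhe40 at chr6:108660629-108666925 (plus strand) and Bhlhe41 at chr6:145858243-145865558 (minus strand).

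Total counts ranged from 7717265 to 18510540 per library, and the shallowest library was replicate 1 of shBruce Starv. Of 9 fibroblast markers, 8 had counts in every library, Thy1 being the exception with 0 to 3 counts, and their summed level was 9369 to 13523 CPM (counts scaled by library size). Epithelial, endothelial and macrophage marker lists summed to at most 2.85, 4.54 and 9.63 CPM in any library. In FM, Birc6 had normalized read counts of 4682, 3273 and 5061 in shRenilla MEFs and 1207, 1265 and 1390 in shBruce MEFs, which gave a log2 fold change of -1.75 (edgeR adjusted p = 0.0627). After starvation it was -1.98 (edgeR adjusted p = 0.0186), and the lines did not overlap in either medium. A normalized read count is the count divided by the relative effective size of its library.

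The members spanned a wide range of levels in unstarved control cells. As counts per kb of the longest annotated transcript, scaled by library size, the mean level in shRenilla FM was highest for Nr1d2, at 23.5 ± 3.42 (SD, n = 3), followed by Bhlhe40 at 20.7 ± 0.851, Nr1d1 at 14.2 ± 0.910, Cry1 at 12.9 ± 0.547, Per1 at 7.49 ± 0.435 and Cry2 at 3.99 ± 0.289. Dbp, Per2, Bhlhe41 and Per3 followed at 1.72 ± 0.440, 1.40 ± 0.0981, 1.38 ± 0.0623 and 1.36 ± 0.146. Nr1d2 and Bhlhe40 overlapped in this order, as did Nr1d1 and Cry1 and the lowest 4 genes, while the other neighbours were separated in all 3 libraries. On the same per-length scale, the order after starvation in shRenilla MEFs began with Nr1d2 at 48.6 ± 3.59 and Nr1d1 at 24.2 ± 0.834, and Bhlhe40 at 11.2 ± 0.110 had moved below Cry1 at 11.7 ± 0.0943. Per2, at 1.07 ± 0.0953, was then the lowest of the 10. The plot of normalized counts shows every library.

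**Figure D1:**
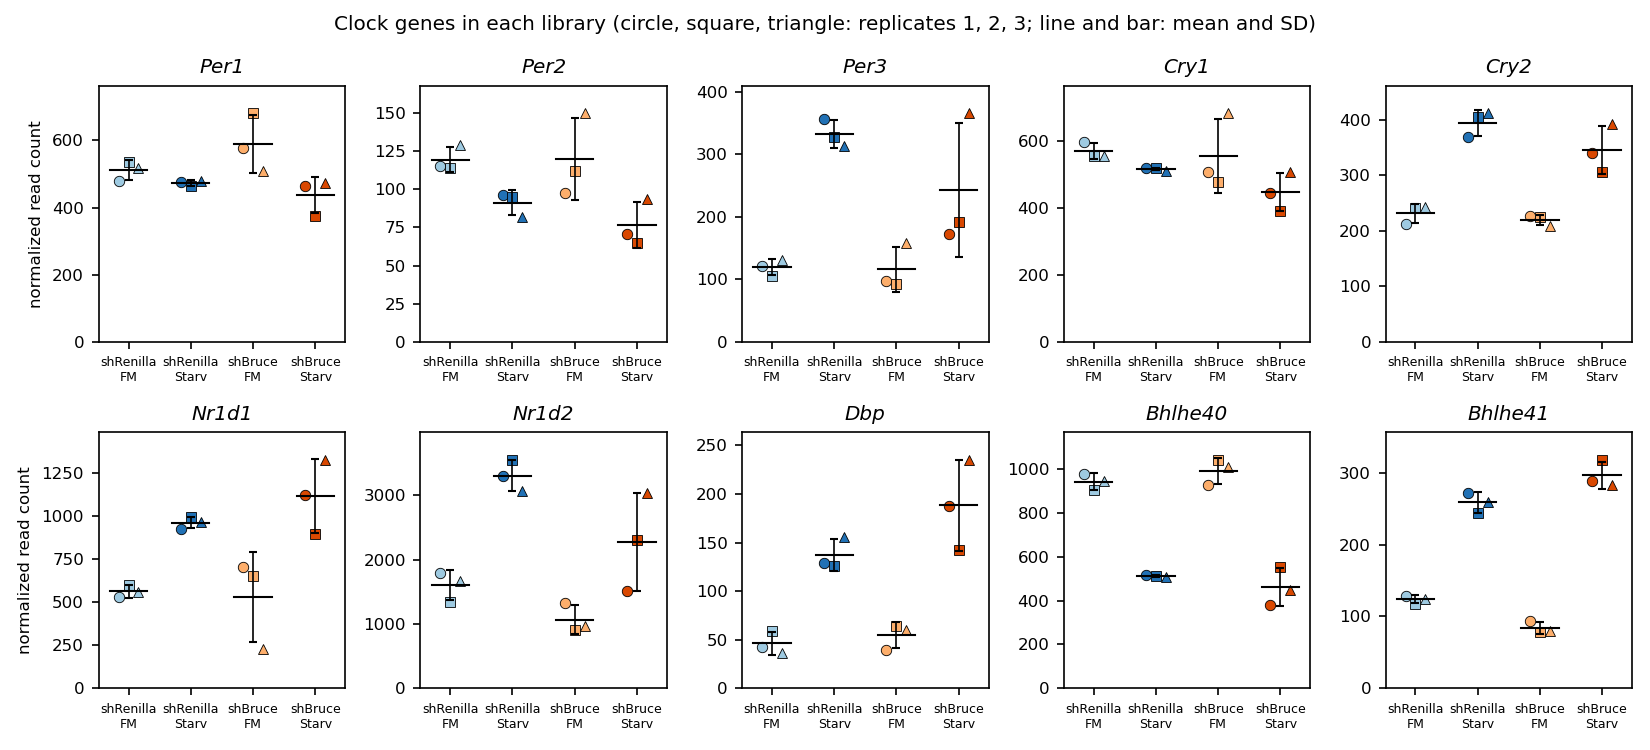
Normalized read counts (vertical axis, from 0) of the 10 genes in each of the 12 libraries, grouped by line and medium on the horizontal axis, with points for replicates 1 to 3 and a line and bar for the mean and SD. Dbp, Per3, Cry2, Nr1d1, Nr1d2 and Bhlhe41 are higher and Bhlhe40 and Per2 are lower in all 3 starved libraries than in all 3 FM libraries of the same line, for both lines.

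In the joint fit of all 12 libraries, most of the clock genes differed between Starv and FM, some up and some down. In shRenilla MEFs, Per3, Cry2, Nr1d2, Dbp and Bhlhe41 rose between 1.70-fold and 2.97-fold and Bhlhe40 fell to 0.542 of its FM level. These were 6 of 10 members, against 17.0% of all genes tested, with 5 higher, against 9.69%, and 1 lower, against 7.27%. In shBruce MEFs, 9 of 10 members passed, against 23.0% of all genes, of which 6 rose, against 12.4%, and 3 fell, against 10.6%, with Nr1d1 joining the genes that rose and Per1 and Per2 the genes that fell. The same 5 genes were called higher in both lines (7.13% of all genes) and Bhlhe40 was called lower in both (5.51%). The order of the lines depended on the joint fit. When each line was fitted alone, 8 members passed in shRenilla MEFs, with 5013 of all genes. In shBruce MEFs 4 members then passed, with 956 of all genes. The median log2 fold change of the 10 genes was 0.77 in shRenilla and 0.87 in shBruce MEFs, against -0.01 and 0.02 over all genes tested. The members were chosen with earlier results of these data known, so these shares and medians are a description and not a test of the set. Calls are from edgeR's quasi-likelihood test with Benjamini-Hochberg adjustment over all genes, and in bulk RNA a change in every cell and a change in the share of cells that express a gene cannot be told apart. With upper-quartile normalization, which moved the median log2 fold change of all genes to 0.08 in shRenilla and 0.11 in shBruce MEFs, the split over all genes was 1588 higher and 641 lower in shRenilla MEFs (1178 and 883 with TMM) and 1991 and 933 in shBruce MEFs (1506 and 1284 with TMM). The members then split into 5 higher and 1 lower in shRenilla and 6 higher and 1 lower in shBruce MEFs. With length and GC trends removed, 1382 genes were higher and 1558 lower in shRenilla and 1688 and 2203 in shBruce MEFs. Without regard to the test, 6 members were higher and 3 lower with no overlap between media in shRenilla MEFs, against 25.9% and 26.5% of all genes, and 6 and 3 in shBruce MEFs, against 16.2% and 14.8%.

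**Figure D2:**
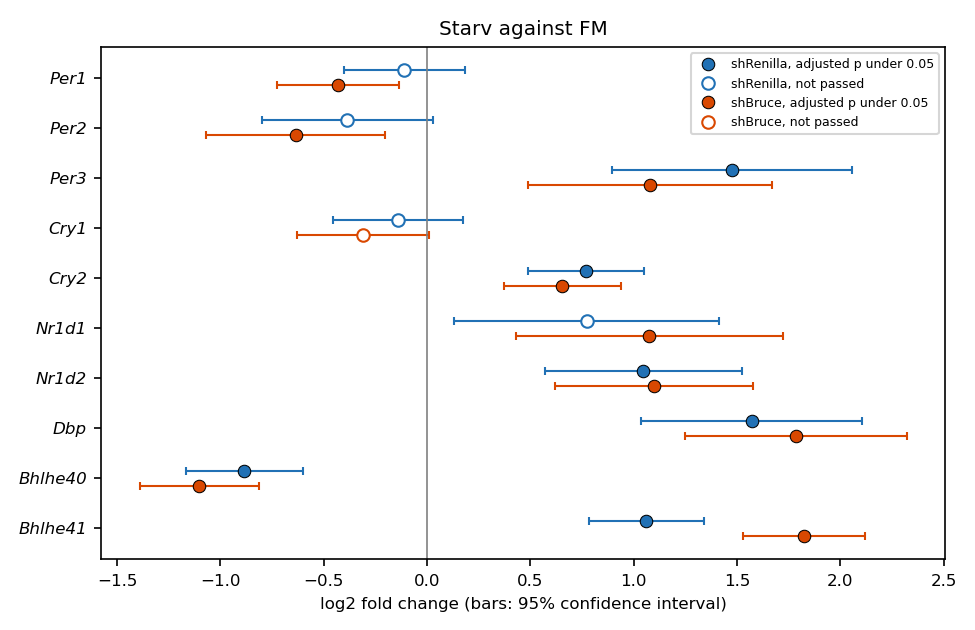
Log2 fold change of Starv against FM (horizontal axis) for the 10 genes (vertical axis) in shRenilla MEFs (blue) and shBruce MEFs (orange), with 95% confidence intervals and filled points for an edgeR adjusted p under 0.05. Dbp, Per3, Nr1d2, Cry2 and Bhlhe41 lie above 0 and Bhlhe40 below 0 with filled points in both lines, whereas Cry1 has open points in both.

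Among the PERIOD genes, which encode the repressors that accumulate and shut off their own transcription, Per3 rose in both lines, while Per1 and Per2 passed as lower in shBruce MEFs and did not pass in shRenilla MEFs. The difference between the lines did not pass the edgeR test for any of these genes, and differences between genes were not tested. Per3 had normalized counts of 122, 106 and 131 in shRenilla FM and 356, 328 and 312 in shRenilla Starv. In shBruce MEFs it had 96.6, 93.2 and 158 in FM and 172, 191 and 365 in Starv. The starved libraries lay above the FM libraries in both lines, but shBruce replicate 3 was the highest of its condition in both media. Per3 rose by a log2 fold change of 1.47 (SE 0.27, edgeR adjusted p = 0.00233) in shRenilla and 1.08 (SE 0.27, edgeR adjusted p = 0.0126) in shBruce MEFs. The shBruce value was 0.65 without Starv replicate 3, and the call was lost without FM replicate 1 (adjusted p = 0.0594) or FM replicate 2 (adjusted p = 0.0615).

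The 250 bases before the RefSeq start of Per3 (GRCm38.p6, chr4:151044666-151044915, minus strand) are shown because they hold 2 copies of the D-box TTATGTAA, the element bound by DBP and its relatives. The capitals mark the copies, which lie 205 to 198 and 158 to 151 bases before the start.
Per3: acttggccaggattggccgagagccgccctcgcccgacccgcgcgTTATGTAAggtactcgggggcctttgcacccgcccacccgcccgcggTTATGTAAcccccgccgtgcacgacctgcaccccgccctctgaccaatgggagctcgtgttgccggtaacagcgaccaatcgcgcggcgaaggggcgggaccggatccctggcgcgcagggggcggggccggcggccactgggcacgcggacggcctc
On either strand, TTATGTAA occurred in 0.819% of the 32851 mouse promoter windows of this length and its variant TTACGTAA in 0.113%, and more than 1 match to either form was found in 7 windows (0.0213%). No other member's window among those searched held either form. A match describes the letters of the window and not occupancy.

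Per1, which is induced acutely by many stimuli in other settings, had 478, 537 and 517 normalized counts in shRenilla FM and 477, 464 and 479 in Starv. The shBruce libraries had 578, 680 and 508 in FM and 464, 376 and 473 in Starv. The media overlapped in shRenilla and did not overlap in shBruce MEFs. Its log2 fold change was -0.11 (95% confidence interval -0.40 to 0.18) in shRenilla MEFs, and it fell by 0.43 on the log2 scale (SE 0.14, edgeR adjusted p = 0.0381) in shBruce MEFs.

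Per2, a second target of CLOCK and BMAL1, had 115, 114 and 129 normalized counts in shRenilla FM and 96.6, 95.2 and 81.9 in Starv. Counts in shBruce MEFs were 97.7, 112 and 150 in FM and 70.6, 65.1 and 93.8 in Starv. Each line had lower counts in all starved libraries. The log2 fold change was -0.39 (edgeR adjusted p = 0.188) in shRenilla, and Per2 fell by 0.64 on the log2 scale (edgeR adjusted p = 0.036) in shBruce MEFs. The shBruce calls of Per1 and Per2 were each lost when 1 of 8 libraries was left out, with adjusted p up to 0.156 for Per1 and up to 0.127 for Per2. For Per1 these were shRenilla FM replicates 1 and 3, shRenilla Starv replicates 1, 2 and 3, shBruce FM replicates 1 and 2 and shBruce Starv replicate 2. For Per2 they were shRenilla FM replicates 1 and 3, shRenilla Starv replicates 1 and 2, shBruce FM replicates 2 and 3 and shBruce Starv replicates 1 and 2.

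Of the cryptochromes, partners of the PERIOD proteins in repression, Cry2 rose in both lines and Cry1 passed in neither. Cry2 had 212, 240 and 242 normalized counts in shRenilla FM and 368, 405 and 411 in Starv. In shBruce MEFs it had 226, 224 and 209 in FM and 339, 306 and 392 in Starv. The starved libraries were above all FM libraries in both lines, and Cry2 rose by a log2 fold change of 0.77 (SE 0.13, edgeR adjusted p = 0.00133) and 0.65 (SE 0.13, edgeR adjusted p = 0.00335).

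Cry1, the stronger repressor of the pair, had 598, 557 and 556 normalized counts in shRenilla FM and 520, 519 and 512 in Starv. The shBruce libraries had 508, 477 and 683 in FM and 446, 393 and 507 in Starv. Its shRenilla media did not overlap and its shBruce media did, and the log2 fold changes were -0.14 (edgeR adjusted p = 0.543) and -0.31 (edgeR adjusted p = 0.15), with 95% confidence intervals of -0.46 to 0.17 and -0.63 to 0.01.

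The REV-ERB genes encode heme-binding nuclear receptors that repress Arntl. Nr1d2 had 1788, 1339 and 1674 normalized counts in shRenilla FM and 3305, 3552 and 3063 in Starv. Counts in shBruce MEFs were 1328, 909 and 968 in FM and 1510, 2299 and 3036 in Starv. The starved libraries were above the FM libraries of the same line, although those of shBruce MEFs were widely spread, and Nr1d2 rose by a log2 fold change of 1.05 (SE 0.22, edgeR adjusted p = 0.00567) and 1.10 (SE 0.22, edgeR adjusted p = 0.0035).

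Nr1d1 had 529, 601 and 557 normalized counts in shRenilla FM and 926, 993 and 963 in Starv. In shBruce MEFs it had 703, 654 and 229 in FM and 1120, 896 and 1325 in Starv. FM replicate 3 of shBruce stood far below the other FM libraries, and the starved libraries were higher than all FM libraries in both lines. The log2 fold change was 0.77 (SE 0.30, edgeR adjusted p = 0.0918) in shRenilla MEFs, which became an adjusted p of 0.00276 without shBruce FM replicate 3, since all 12 libraries share 1 estimate of the spread. In shBruce MEFs Nr1d1 rose by 1.08 (SE 0.30, edgeR adjusted p = 0.0205), or by 0.71 without that library. Its exons share 263 bases (8.55%) with the opposite-strand gene Thra, and the strand setting of the counting is not given in the sources used here.

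Dbp, the D-box activator whose transcription is a direct output of CLOCK and BMAL1, had 42.4, 59.4 and 36.7 normalized counts in shRenilla FM and 129, 126 and 156 in Starv. The shBruce libraries had 39.3, 63.9 and 60.5 in FM and 188, 142 and 235 in Starv. No starved library came near the FM libraries, and Dbp had the largest shRenilla change of the 10 genes, with a log2 fold change of 1.57 (SE 0.25, edgeR adjusted p = 0.000855). In shBruce MEFs it rose by 1.79 (SE 0.25, edgeR adjusted p = 0.000317). Dbp shares 539 exon bases (18%) with Sphk2 on the opposite strand, whereas such overlaps took 4.67% of the exon bases of Cry2 and 2.51% of those of Bhlhe40.

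The DEC genes moved in opposite directions. Bhlhe40 (DEC1), which also responds to growth signals and hypoxia, had 979, 902 and 945 normalized counts in shRenilla FM and 516, 511 and 505 in Starv. Counts in shBruce MEFs were 926, 1041 and 1010 in FM and 382, 553 and 447 in Starv. All starved libraries were lower, and Bhlhe40 fell with log2 fold changes of -0.88 (SE 0.13, edgeR adjusted p = 0.000579) in shRenilla and -1.10 (SE 0.13, edgeR adjusted p = 0.000109) in shBruce MEFs.

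Bhlhe41 (DEC2) had 129, 118 and 125 normalized counts in shRenilla FM and 272, 244 and 260 in Starv. In shBruce MEFs it had 93.4, 78.5 and 79.3 in FM and 289, 318 and 283 in Starv. The 4 conditions did not overlap with each other in any pair, and Bhlhe41 rose by a log2 fold change of 1.06 (SE 0.13, edgeR adjusted p = 0.00014) in shRenilla and 1.82 (SE 0.14, edgeR adjusted p = 1.99e-06) in shBruce MEFs. Its exons share 1280 bases (19%) with Gm43909, an unclassified annotation on the opposite strand.

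The E-box CACGTG, the element bound by CLOCK and BMAL1 and by the DEC proteins, occurred once in each of the windows of 250 bases before the RefSeq start of Bhlhe41, the start of Cry1 and the first start of Per1. They are printed because 1 of these genes rose in both lines and the other two did not, and the capitals mark the E-box and, in Per1, also the reverse complement of AGGTCA, the core of the element bound by the REV-ERB and ROR receptors. The windows are chr6:145865421-145865670 (minus strand) for Bhlhe41, chr10:85185055-85185304 (minus strand) for Cry1 and chr11:69098699-69098948 (plus strand) for Per1, all in GRCm38.p6. The Per1 window lies wholly inside the GENCODE span of the gene given above, and the Bhlhe41 window lies partly inside its own.
Bhlhe41: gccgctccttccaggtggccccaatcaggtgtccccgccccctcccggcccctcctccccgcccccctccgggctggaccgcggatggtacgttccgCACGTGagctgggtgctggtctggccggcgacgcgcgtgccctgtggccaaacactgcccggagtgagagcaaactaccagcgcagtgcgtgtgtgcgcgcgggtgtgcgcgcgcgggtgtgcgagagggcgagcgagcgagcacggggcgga
Cry1: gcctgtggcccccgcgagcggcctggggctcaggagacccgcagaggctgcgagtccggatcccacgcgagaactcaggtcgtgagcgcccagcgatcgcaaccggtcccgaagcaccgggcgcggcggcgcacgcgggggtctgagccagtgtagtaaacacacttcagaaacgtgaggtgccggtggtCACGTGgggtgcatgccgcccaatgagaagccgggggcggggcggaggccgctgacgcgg
Per1: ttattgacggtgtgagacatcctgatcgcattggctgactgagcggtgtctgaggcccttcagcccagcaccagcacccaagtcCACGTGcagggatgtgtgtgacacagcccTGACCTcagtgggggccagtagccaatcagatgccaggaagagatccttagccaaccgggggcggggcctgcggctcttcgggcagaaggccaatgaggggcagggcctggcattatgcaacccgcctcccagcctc
The E-box lies 153 to 148 bases before the start in Bhlhe41, 60 to 55 in Cry1 and 166 to 161 in Per1. It was found in 6.02% of the 32851 windows on either strand, which read the same for this palindrome, and AGGTCA in 14% on either strand. AGGTCA was also found 77 to 72 bases before the start of Nr1d2. In the windows of Cry2, Nr1d1, Dbp and the second Per1 start, neither of these motifs, the D-box forms nor the cyclic AMP response element TGACGTCA (1.55% of windows) was found.

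For single genes, an exact permutation test of the log2 normalized counts with medium labels exchanged within each line gave p = 0.005, the smallest that its 400 arrangements allow, for Per2, Per3, Cry2, Nr1d1, Nr1d2, Dbp, Bhlhe40 and Bhlhe41. For Per1 and Cry1, which had mean log2 differences of -0.27 and -0.22 over both lines, the exact two-sided p was 0.01. These values are not adjusted for the number of genes.

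Library size cancels in a ratio of counts within a library, but library trends with transcript length and GC need not. Ratios of paralogs are given as a description without a test. Bhlhe41 had 0.131 ± 0.000584 counts per Bhlhe40 count (SD, n = 3) in shRenilla FM and 0.507 ± 0.0258 in Starv, and 0.0850 ± 0.0139 and 0.655 ± 0.0925 in shBruce MEFs. Cry2 had 0.407 ± 0.0455 counts per Cry1 count in shRenilla FM and 0.764 ± 0.0495 in Starv, and 0.407 ± 0.0881 and 0.771 ± 0.00999 in shBruce MEFs. Per3 had 0.999 ± 0.0669 counts per Per2 count in shRenilla FM and 3.65 ± 0.187 in Starv, and 0.958 ± 0.114 and 3.08 ± 0.743 in shBruce MEFs. The FM and Starv libraries did not overlap in any of these 3 ratios. The Nr1d2 to Nr1d1 ratio overlapped between media in both lines, with a range of 1.39 to 4.23 in shBruce FM.

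**Figure D3:**
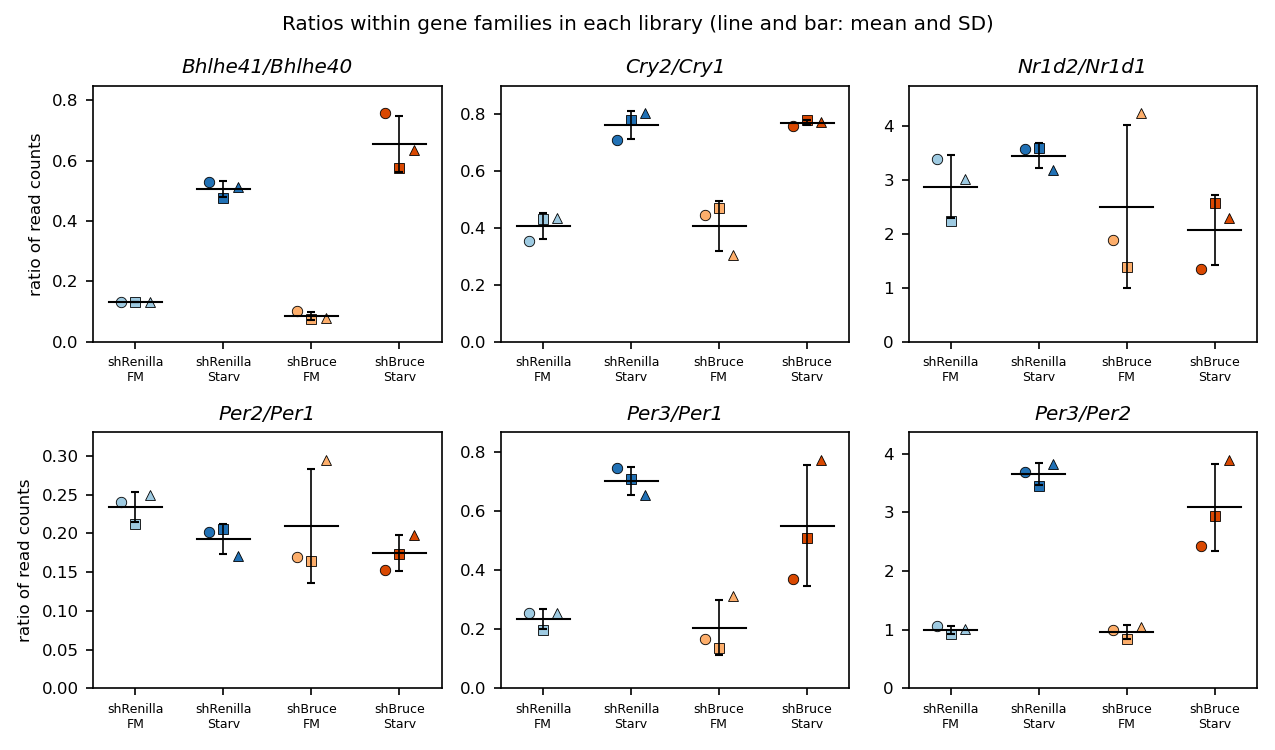
Ratios of read counts between members of a family (vertical axes, from 0) in each library, grouped by line and medium on the horizontal axis, with points for replicates 1 to 3 and a line and bar for the mean and SD. Bhlhe41/Bhlhe40, Cry2/Cry1, Per3/Per1 and Per3/Per2 are higher in every starved library than in any FM library of the same line.

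The line comparisons asked whether the clock genes differed between shBruce and shRenilla MEFs, and they share their libraries with the starvation comparisons. In FM, 0 of 10 members passed the edgeR test, as did 0% of all genes, and 2 of 10 had an unadjusted p under 0.05, against 14.4% of all genes. DESeq2 and limma-voom also called 0 members, with 76 and 0 of all genes. In Starv, edgeR called 0 of 10 members, against 23.9% of all genes, with 1 of 10 at an unadjusted p under 0.05, against 41.2%, and DESeq2 and limma-voom called 0 members, with 3781 and 2768 of all genes. The Starv background of 2907 genes rested on single libraries, since 0 genes passed without shRenilla Starv replicate 1 or 2, 15 without shBruce Starv replicate 2, 573 without its replicate 1 and 5735 without its replicate 3. In the fit of the Starv groups alone, 0 genes passed, and with length and GC trends removed 1005 did. Without regard to the test, 2 members were lower in shBruce with no overlap in FM (17.0% of all genes), and in Starv 1 was higher (16.4%) and 2 were lower (18.5%).

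Nr1d2 was lower in shBruce MEFs in every library than in the shRenilla libraries of the same medium, with log2 fold changes of -0.58 in FM (95% confidence interval -1.06 to -0.11, edgeR adjusted p = 0.303) and -0.53 in Starv (SE 0.22, edgeR adjusted p = 0.0869). The margin was narrow. The nearest libraries had normalized counts of 1328 in shBruce and 1339 in shRenilla FM, and 3036 and 3063 in Starv. With line labels exchanged within each medium, the exact permutation test gave a mean log2 difference of -0.59 and p = 0.005, and for the remaining members p = 0.07 to 0.98, not adjusted for the number of genes. The libraries also had trends against transcript length, and whether these bear on the Nr1d2 difference was not tested. The slope per doubling of length lay between -0.02 and 0.21 in the shRenilla and between -0.23 and 0.04 in the shBruce libraries on the log2 scale. With length and GC trends removed, Nr1d2 differed by -0.33 in FM and -0.18 in Starv (edgeR adjusted p = 0.466 and 0.445), whereas its starvation changes were 0.91 in shRenilla and 1.05 in shBruce MEFs. Without shBruce Starv replicate 3, the Starv difference was -0.79 (edgeR adjusted p = 0.00672), and Per3, at -0.87 (edgeR adjusted p = 0.00472), also passed, from -0.44 (edgeR adjusted p = 0.222) with all libraries.

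Bhlhe41 was lower in shBruce MEFs in FM and higher in Starv, with no overlap in either medium. The log2 fold changes were -0.56 in FM (SE 0.14, edgeR adjusted p = 0.246) and 0.20 in Starv (SE 0.13, edgeR adjusted p = 0.253). With length and GC trends removed the FM difference was -0.34 (edgeR adjusted p = 0.47) and the Starv difference 0.57 (edgeR adjusted p = 0.0424). The Starv difference passed in this 1 of 22 alternatives. The interaction of line and medium, which tests whether starvation changed a gene by a different amount in the lines, was 0.76 for Bhlhe41 (SE 0.19, 95% confidence interval 0.36 to 1.16) with an unadjusted p of 0.00125 and an edgeR adjusted p of 0.806. It was the single member at an unadjusted p under 0.05, against 3.90% of all genes, and 0 members and 0% of all genes passed the adjusted test, with 0 members and 0 genes in all by DESeq2 and limma-voom.

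The remaining 8 genes overlapped between the lines in FM. Their log2 fold changes there ran from -0.09 for Nr1d1 to 0.24 for Dbp, with confidence intervals from -0.73 to 0.55 and from -0.32 to 0.81. In Starv, Dbp was at 0.46 (95% confidence interval -0.04 to 0.96) and Cry1 at -0.20 (-0.52 to 0.12), and Cry1 did not overlap between the lines. At this depth and replication, these intervals hold differences of either sign, so equal levels in the lines were not shown.

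**Figure D4:**
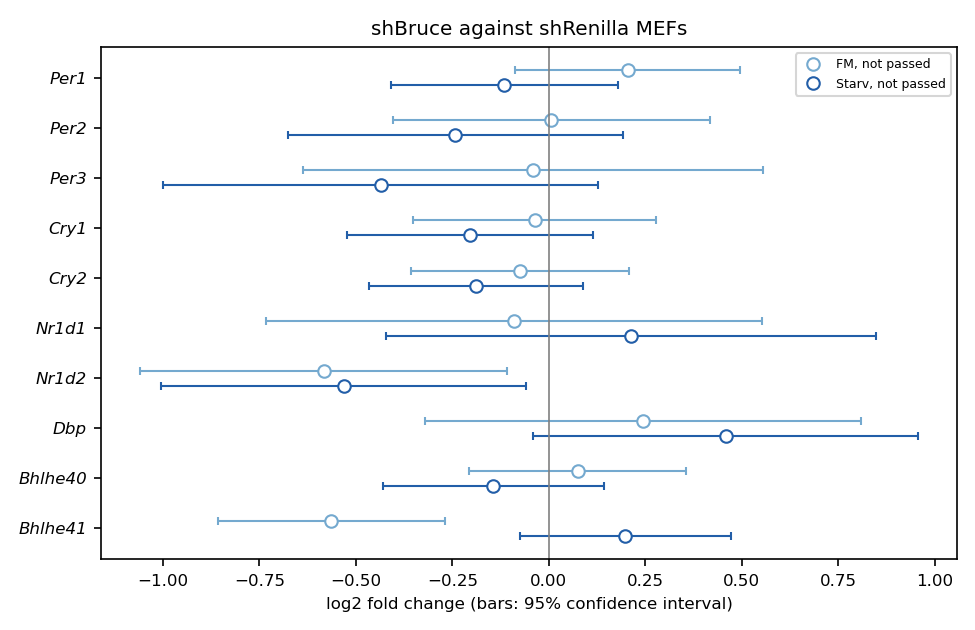
Log2 difference between the lines, shBruce over shRenilla (horizontal axis), for the 10 genes (vertical axis) in FM (light) and Starv (dark), with 95% confidence intervals. All points are open because no gene passed an edgeR adjusted p under 0.05, and both intervals of Nr1d2 and the FM interval of Bhlhe41 lie below 0.

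The other genes of the pathway were described from 5 lists with 45 genes, of which 42 were tested. In shRenilla MEFs 11 rose and 5 fell with starvation, against 9.69% and 7.27% of all genes, and in shBruce MEFs 9 rose and 7 fell, against 12.4% and 10.6%. Their median log2 fold changes were 0.00 and 0.02. These lists were also chosen with earlier results of these data known, so the counts are a description. The activators Clock and Arntl, which drive the members, were not called. In shRenilla MEFs Clock was at -0.26 (edgeR adjusted p = 0.293) and Arntl at 0.23 (edgeR adjusted p = 0.505). In shBruce MEFs they were at -0.38 and 0.06. Arntl2, of the same list, was at 0.59 in shRenilla MEFs (edgeR adjusted p = 0.050005, just above the level) and 0.38 in shBruce MEFs. In shRenilla MEFs, Arntl and Arntl2 were higher in all starved than in all FM libraries, as were 25.9% of all genes. Both overlapped between media in shBruce MEFs. Npas2, a CLOCK paralog, had 0 or 1 counts per library and was not tested.

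Of 5 tested activator and ROR genes, 1 rose in each line and 0 fell. Over all genes, 9.69% rose and 7.27% fell in shRenilla MEFs, and 12.4% and 10.6% in shBruce MEFs. Rora, a ROR receptor that competes with the REV-ERBs, had 46.5, 34.9 and 41.2 normalized counts in shRenilla FM and 258, 270 and 197 in Starv, a log2 fold change of 2.56 (edgeR adjusted p = 5.96e-05). The shBruce libraries had 44.6, 17.8 and 18.8 in FM and 299, 209 and 221 in Starv, a log2 fold change of 3.16. These fold changes were larger than those of the 10 members in both lines, although the differences between genes were not tested.

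Of 8 other output genes, 5 rose and 1 fell in shRenilla MEFs, against 9.69% and 7.27% of all genes. In shBruce MEFs 3 rose and 1 fell, against 12.4% and 10.6%. Ciart, a repressor of CLOCK and BMAL1, rose by a log2 fold change of 2.23 and 2.46, Usp2, a deubiquitinase of clock proteins, by 1.18 and 1.77, and Tef, a DBP relative, by 0.60 and 0.54. Nfil3, which represses through D-boxes, rose by 0.77 in shRenilla MEFs. Noct, a phosphatase that is listed in the table as Ccrn4l, fell with log2 fold changes of -1.56 and -1.68. Its normalized counts went from 3298 to 3437 in shRenilla FM to 1038 to 1255 in Starv.

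Of 6 cofactors, 2 rose in each line, Timeless by 0.77 and 0.91 and the deacetylase Sirt1 by 1.01 and 0.94, and Wdr5 fell by 0.53 in shBruce MEFs. Over all genes, 9.69% rose in shRenilla MEFs, and 12.4% rose and 10.6% fell in shBruce MEFs.

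Of 11 targets of CREB and the glucocorticoid receptor, routes by which serum and hormones reach Per1, 2 rose and 4 fell in shRenilla MEFs. The shares of all genes were 9.69% and 7.27%. In shBruce MEFs 2 rose and 5 fell, against 12.4% and 10.6%. Tsc22d3 rose by a log2 fold change of 2.66 and 2.58, and Klf9 by 1.26 and 2.12. Klf9 had 3787, 1790 and 1781 normalized counts in shBruce Starv, the highest in replicate 1, the shallowest library. Fkbp5, of the same list, was not called, at 0.13 and 0.03 (edgeR adjusted p = 0.408 and 0.888). Nr4a1, an immediate-early nuclear receptor, fell with log2 fold changes of -2.49 and -2.71, Errfi1 of -2.23 and -2.55, Cebpd of -1.37 and -0.90 and Sgk1 of -1.20 and -1.54. 

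**Figure D5:**
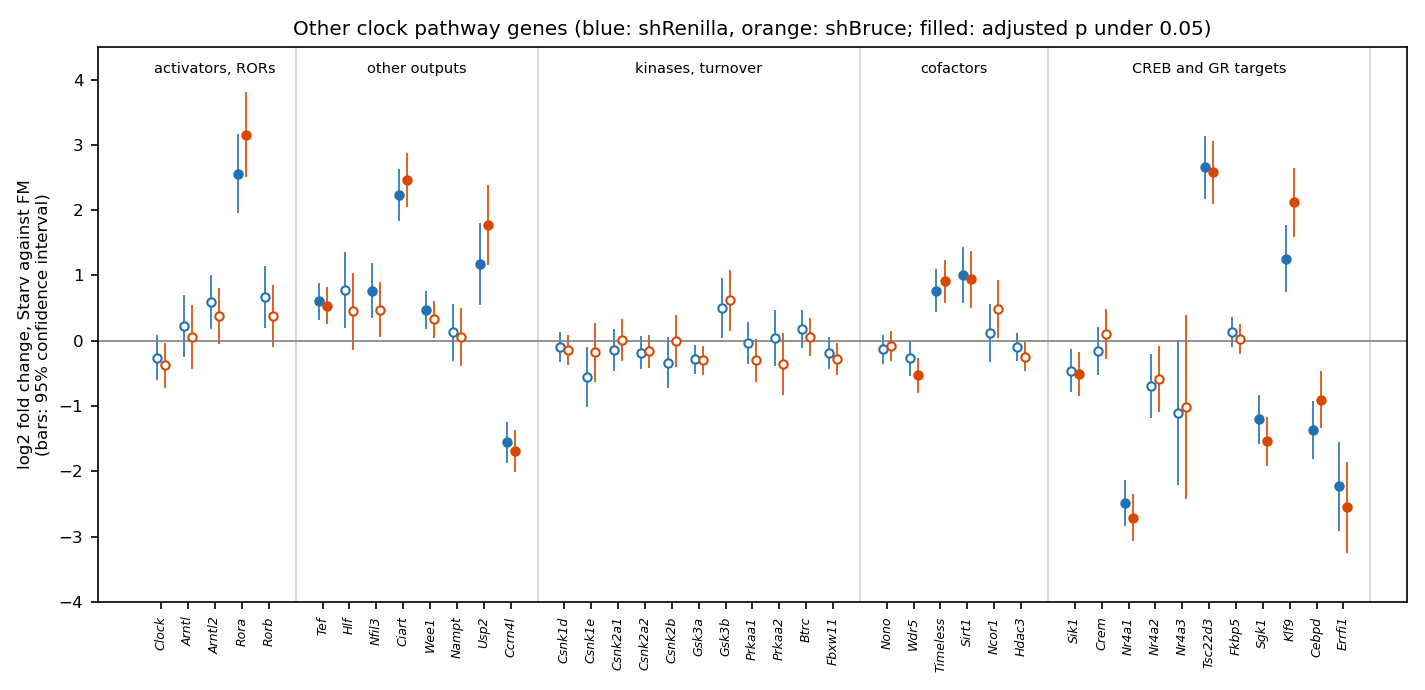
Log2 fold change of Starv against FM (vertical axis) for 41 tested genes of the 5 other lists (horizontal axis) in shRenilla MEFs (blue) and shBruce MEFs (orange), with 95% confidence intervals and filled points for an edgeR adjusted p under 0.05. Rora, Ciart and Tsc22d3 lie above 2 and Nr4a1 and Errfi1 below -2 in both lines.

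Between the lines, 0 of these 42 genes passed in FM, as did 0% of all genes. There, 5 had an unadjusted p under 0.05, against 14.4% of all genes. In Starv 4 were higher and 4 lower in shBruce MEFs, against 12.8% and 11.2% of all genes. The lower genes were Clock at -0.51 (edgeR adjusted p = 0.0392), Nampt at -0.61 (edgeR adjusted p = 0.0462) and 2 AMPK catalytic subunits. These were Prkaa2 at -1.03 (edgeR adjusted p = 0.0225) and Prkaa1 at -0.53 (edgeR adjusted p = 0.0290). Usp2 at 1.04 (edgeR adjusted p = 0.0259) and Cebpd at 0.70 (edgeR adjusted p = 0.0349) were higher. So were Klf9 at 0.70 (edgeR adjusted p = 0.0468) and Csnk2b at 0.55 (edgeR adjusted p = 0.0456). Leaving out 1 library moved this count of 8 to between 0 and 17, with 0 when shRenilla Starv replicate 1 or 2 or shBruce Starv replicate 2 was absent and 17 when replicate 3 of shBruce Starv was. The count over all genes moved with it, from 2907 to 0, 0, 15 and 5735 without these libraries. In a fit of only the Starv groups, 0 of the 42 and 0 of all genes passed, with edgeR.

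The genes most like the 4 members with the largest shRenilla starvation change were found by Pearson's r of log2 normalized counts over the 12 libraries, among 10363 genes, and are given as a description. For Dbp these were Pgpep1, Asap3 and 3010026O09Rik (r = 0.979, 0.979 and 0.977). For Per3 they were 2010315B03Rik, Tmem194b and Aldh1l2 (r = 0.984, 0.984 and 0.983). For Bhlhe41 they were Mfsd11, Apobec1 and Rora (r = 0.977, 0.976 and 0.974), and for Nr1d2 Sirt1, Zfp62 and Fam76b (r = 0.983, 0.982 and 0.980). The points share the contrast of the media and the library depth, so these values describe these libraries.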

How the data were processed

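Single-end, poly(A)-enriched RNA-Seq of 12 MEF libraries was used. The authors mapped reads to mm10 with STAR 2.4.0d and counted them per gene with HTSeq 0.5.4p3, per the submitters' processing notes, and deposited raw counts without normalization. The annotation and strand setting are not given in the sources used here. Of the symbols, 27 had become dates (0.296% of counts) and 2 were repeated, and these were kept unnamed.

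The main test was that of edgeR 4.0.16, run in R 4.3.3 (TMM normalization, filterByExpr, 1 joint fit of the 12 libraries, quasi-likelihood test, two-sided, Benjamini-Hochberg adjustment over 12154 genes, level 0.05). Log2 values for permutation tests and correlations used a pseudocount of 0.5. Total counts were 7717265 to 18510540, and replicates differed beyond counting error (chi-square per degree of freedom 2.21 to 95.2), so errors are SDs or standard errors of the fit. Alternatives were DESeq2 size factors, upper-quartile normalization, DESeq2 1.42.0, limma-voom (limma 3.58.1), no filter, at least 10 counts in every library, only the groups compared, the replicate block, each library left out, a 2-fold change, and removal of length and GC trends. On simulated counts, for Starv against FM in shRenilla MEFs over 12048 genes with 199 changed, edgeR recovered 79 genes changed by 2-fold and 95 by 4-fold, with 3 false calls. Positions, transcript lengths and exon overlaps came from GENCODE M21 and promoter windows from RefSeq (GRCm38.p6), which held 8 of the 10 members, not Per2 and Bhlhe40. Figures were drawn with matplotlib 3.10.9 in Python 3.11.15.

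Named genes are the 10 members, Birc6, Clock, Arntl, Arntl2, Npas2 and Fkbp5, up to 3 rising and 3 falling called genes with the largest change per list and comparison, and the 3 genes most like each of 4 members (mean normalized count of at least 50). The members and lists were chosen with earlier results of these data known. Of the genes in the other lists, 1 is counted but not reported here.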

Additional observations from a re-analysis of the deposited data

Results flagged for a closer look

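Bhlhe41 stood out because the line difference changed direction between media: all 3 shBruce libraries were below all 3 shRenilla libraries in FM and above them in Starv. The interaction of line and medium was 0.76 on the log2 scale (SE 0.19, unadjusted p = 0.00125), and it did not pass the adjustment over all genes (edgeR adjusted p = 0.806, with a range of 0.089 to 0.994 over the alternatives).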

How the results depend on the processing

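Dbp, Bhlhe40, Bhlhe41 and Nr1d2 passed for starvation in both lines under all 22 alternatives, as did Per3 and Cry2 in shRenilla MEFs. In shBruce MEFs, Per3 passed in 19, Cry2 and Nr1d1 in 21, Per2 in 12 and Per1 in 11. Of 1090 alternative values for the members, 1032 kept their direction and side of the threshold. The causes of the changes below were not tested.

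In a fit of only the groups compared, 4 members passed for starvation in shBruce MEFs (9 in the joint fit) and 8 in shRenilla MEFs (6). Of the other pathway genes, 27 passed for starvation in shRenilla MEFs (16), and 1 (0) and 0 (8) between the lines in FM and Starv. All genes called moved the same way, with 956 (2790) for starvation in shBruce MEFs, 5013 (2061) in shRenilla MEFs, and 597 (0) and 0 (2907) between the lines. At a 2-fold change, 9 other pathway genes (16) passed for starvation in shBruce MEFs and 2 (8) between the lines in Starv. With 1 library left out, 6 to 9 members passed for starvation in shBruce MEFs, 0 to 2 between the lines in Starv (2 without shBruce Starv replicate 3) and 1 to 4 in the line permutation test. Other pathway genes then ranged from 12 to 25 in shRenilla MEFs (25 without shBruce Starv replicate 1, when 3212 of all genes passed) and from 0 to 17 between the lines in Starv (17 without shBruce Starv replicate 3). With length and GC trends removed, 1 member passed between the lines in Starv.

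Replicate numbers were tried as a block, although same-numbered libraries did not deviate together throughout (r from -0.46 to 0.16). With the replicate block, 4 other pathway genes passed between the lines in Starv, 0 with trends also removed, and Per1 was lost in shBruce MEFs. In FM, each library correlated best with its own number across the lines, in 3 of 3 libraries of each line.

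Values that changed sign had not passed in the joint fit, and ranges are those without 1 library. For the line difference in FM these were Per2 (-0.011 with limma-voom, -0.0082 with no filter, -0.0055 with the block, -0.19 to 0.13), Per3 (0.081 with trends removed, 0.048 with the block too, -0.33 to 0.093), Cry1 (-0.21 to 0.062), Nr1d1 (-0.35 to 0.27) and Dbp (-0.000351 with trends removed, -0.021 with the block too). In Starv they were Nr1d1 (-0.015 with trends removed) and Dbp (-0.030 with trends removed and the block). For the interaction they were Cry1 (-0.27 to 0.0065), Nr1d1 (-0.060 to 0.56), Nr1d2 (-0.21 to 0.25) and Dbp (-0.0094 with trends removed and the block). Dbp and Per2 had as few as 37 and 35 counts in a library, which limits their precision.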
